A study of Mus musculus with 374 samples.

Results

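Granulocytes of the bone marrow were compared by the amount of Gr1 on their surface. The antibody signal of every cell had been recorded during the sort together with the well the cell went to (index data), so the 96 wells of the sorted granulocytes could be ranked, and the groups were chosen by this Gr1 fluorescence alone. The 94 wells with at least 500 UMIs on mouse genes were used and 2 wells were left out, where a UMI (unique molecular identifier) stands for 1 captured transcript. The upper 31 wells are called Gr1-high, the lower 31 Gr1-low and the 32 between them Gr1-middle, so 62 of the 374 cells of the series enter the main comparison. All cells came from 1 female C57BL/6 mouse of 10 to 13 weeks, with no transgene or treatment in the labels, and were prepared on 1 plate by CEL-seq2, a method that counts the 3' ends of polyadenylated RNA. The granulocytes were sorted from its bone marrow as positive for both Mac-1 and Gr1, beside erythroblasts, B lymphocytes and progenitor/stem cells of the same marrow and T lymphocytes of the thymus.

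The Gr1 antibody binds Ly6G, a surface protein of neutrophils, and also Ly6C, which monocytes and many other blood cells carry. Mac-1 is the integrin of the chains Itgam and Itgb2 and is found on both neutrophils and monocytes. A neutrophil makes its granule proteins in a fixed order in the marrow, with the proteases of the primary granules in promyelocytes, the antimicrobial proteins of the specific granules in myelocytes and metamyelocytes, and the gelatinase granules and the receptors for migration in band and segmented cells. Gr1 is therefore read by cytometrists both as a sign of neutrophil maturity and as a means of telling neutrophils from monocytes.

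Gr1 fluorescence chose the groups and is given only as a description. It reached from 736 to 14077 (median 2060) arbitrary units in the Gr1-low wells, from 14256 to 23088 (median 18601) in the Gr1-middle wells and from 23188 to 49318 (median 31308) in the Gr1-high wells. The wells next to either limit thus differed by little. The other channels of the index data were not used by the ranking. Median Mac-1 fluorescence was 1001 in Gr1-high, 1073 in Gr1-middle and 2057 in Gr1-low wells, and 19 of the 31 Gr1-low wells were above the upper quartile of the Gr1-high wells. Median CD44, an adhesion receptor, was 20550, 19626 and 12823 in the same order. Of the Gr1-low wells, 25 were below the lowest CD44 value of any Gr1-high well, 17022. Median side scatter, which grows with the granularity of a cell, was 59904, 58496 and 35456, and 25 Gr1-low wells were below the lower quartile of the Gr1-high wells.

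**Figure D1:**
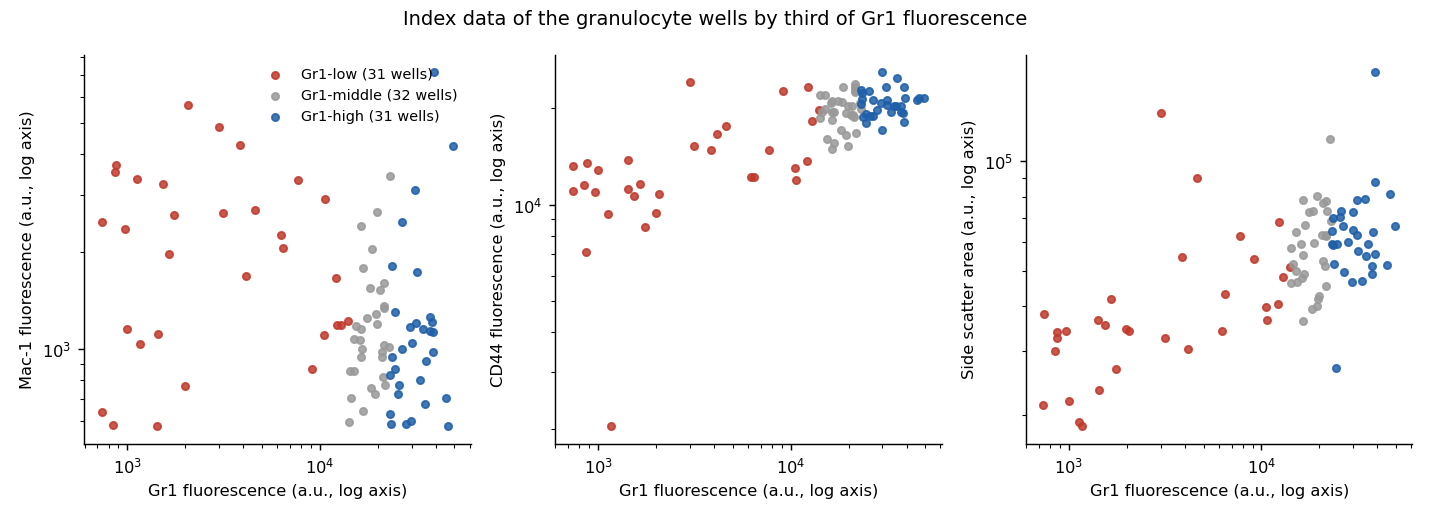
Mac-1 fluorescence, CD44 fluorescence and side scatter area against Gr1 fluorescence, all in arbitrary units on log axes, with 1 point per well and a colour for each group of Gr1 fluorescence. The Gr1-low wells spread over a wide range of Gr1, with medians of 2057 for Mac-1 against 1001 in the Gr1-high wells and of 12823 for CD44 against 20550.

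The Gr1-high wells summed to 103592 UMIs on mouse genes, the Gr1-middle wells to 113386 and the Gr1-low wells to 186451. A well held a median of 3102, 3283 and 5483 UMIs in this order, while the median number of UMIs on the ERCC spike-in RNAs was 448, 428.5 and 439. The median number of genes per well was 1221, 1173.5 and 1978, and it was 501, 485.5 and 487 when each well was thinned to 1000 UMIs. Mitochondrial transcripts took a median of 0.566%, 0.578% and 0.832% of the UMIs of a well. The deepest Gr1-low well, I13, held 22425 UMIs, or 12.0% of its group, and had a forward scatter area over height of 1.75, so values that rest on it are given with and without it. The nearest of the 5 sorted populations, by correlation over 3906 genes, was the granulocytes for all 31 Gr1-high, all 32 Gr1-middle and 29 of 31 Gr1-low wells. The other 2, I17 and J12, were nearest to the progenitor/stem cells. No monocytes were sorted, so wells of monocytes could not be told from granulocytes in this way. The counts of genes and the ratios of some of the lists without these 2 wells are among the limits at the end. Plate rows held between 6 and 11 wells of each of the compared groups, and no 2 of the 374 wells shared a barcode.

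The UMIs of all wells of a group were added up per gene and divided by the total on mouse genes, and the values are given as CPM, on a scale of 1000000 UMIs per group. Each group is 1 sample of 1 mouse, so no test was made, and the 95% intervals given for sums (exact Poisson) and ratios (exact conditional binomial) cover counting error only. Of 751 genes with at least 50 UMIs in the Gr1-high and Gr1-low wells together, 111 (14.8%) were at least 2-fold higher in Gr1-high and 170 (22.6%) at least 2-fold higher in Gr1-low wells, 281 (37.4%) in all. The median log2 ratio of Gr1-high over Gr1-low was -0.01. Counts of list genes given below stand beside the shares of 14.8% and 22.6%. A gene that reaches the minimum through 1 group alone is counted for that group by construction. Between Gr1-high and Gr1-middle wells 5 of 487 genes (1.03%) were at least 2-fold higher in Gr1-high and 8 (1.64%) in Gr1-middle wells. Against the Gr1-low wells the Gr1-middle wells were at least 2-fold higher in 74 of 750 genes (9.87%) and at least 2-fold lower in 173 (23.1%). These comparisons share wells, and their counts are given side by side only.

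The list of gelatinase granule and late neutrophil genes was lower in the Gr1-low wells than in both other groups, which were close to each other. Its 22 genes took between 1.51% and 7.17% (median 4.68%) of the UMIs of a Gr1-high well, between 1.14% and 7.07% (4.30%) of a Gr1-middle well and between 0.155% and 4.70% (0.863%) of a Gr1-low well. Of the Gr1-low wells, 24 were below the lowest Gr1-high well. Summed, the list was at 45100 CPM (interval 43816 to 46412) in Gr1-high, 39370 CPM in Gr1-middle and 9863 CPM (9417 to 10324) in Gr1-low wells, a log2 ratio of Gr1-high over Gr1-low of 2.19 (2.11 to 2.27). Of its 16 genes with enough UMIs, 14 were at least 2-fold higher in Gr1-high wells and none was 2-fold higher in Gr1-low wells, with a median log2 ratio of 2.11. Of all 751 genes 14.8% were at least 2-fold higher in Gr1-high wells. Some of the 14, such as Fpr1 (51 Gr1-high and 12 Gr1-low UMIs) and Stfa2l1 (124 and 12), reached the minimum through Gr1-high UMIs alone. The count and the median are therefore no support beyond the summed ratio. Within the plate rows the log2 ratio of the list lay between 1.45 and 2.44.

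Retnlg, a resistin-like secreted protein of neutrophils, gave a median of 21.2 UMIs per 1000 in the Gr1-high wells (lowest 1.24, highest 44.5), 18.5 in the Gr1-middle wells (0.857 to 40.7) and 0.489 in the Gr1-low wells (0 to 19.9). The groups overlapped through a few Gr1-low wells with high values. Summed, its 2012 UMIs in Gr1-high and 258 in Gr1-low wells gave a log2 ratio of 3.81 (3.62 to 4.00). Retnlg had a UMI in 87.5% of the 96 erythroblast wells (median depth 6114 UMIs), which should lack it, so the share of wells with a UMI is not read for this gene. Mmp8, the neutrophil collagenase, had a median of 5.81 UMIs per 1000 in Gr1-high and 0.376 in Gr1-low wells, and a log2 ratio of 2.37 (2.14 to 2.61). Mmp9, the gelatinase that names the granule, was seen in all 31 Gr1-high and in 17 Gr1-low wells, with a log2 ratio of 2.15 (1.84 to 2.47). The antimicrobial Pglyrp1 (0.48) and Wfdc21 (0.12) of the same list were under the 2-fold limit.

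Several receptors for chemoattractants were higher in Gr1-high wells. Cxcr2, the receptor for the chemokines that call neutrophils out of the marrow, had a median of 1.34 UMIs per 1000 in Gr1-high wells (0 to 4.90) and of 0 in Gr1-low wells (0 to 2.59). It was seen in 28 of 31 Gr1-high and 11 of 31 Gr1-low wells, against 6.25% of the erythroblast wells, with a log2 ratio of 2.99 (2.43 to 3.59). All 32 of its Gr1-low UMIs were in the 16 wells at or above the median Gr1 of that group. Csf3r, the receptor for granulocyte colony-stimulating factor, had a log2 ratio of 2.72 (2.25 to 3.22). Fpr1, a receptor for formylated bacterial peptides, had 51 UMIs in Gr1-high and 12 in Gr1-low wells (2.94, 2.01 to 3.98), and its relative Fpr2 a ratio of 1.13 (0.70 to 1.57). The chemokine receptor Ccr1 stood at 2.47 (1.78 to 3.22). Of the 7 chemoattractant receptors with enough UMIs 4 were at least 2-fold higher in Gr1-high wells, against 14.8% of all 751 genes. One, Ccr2, was so in Gr1-low wells, against 22.6%. Cxcr2, Fpr1 and Fpr2 are also members of the late neutrophil list, so the count is not a separate result. Some members, such as Fpr1 and Ccr2, reached the minimum through the UMIs of 1 group alone. Cxcr4, which retains cells in the marrow, was at 0.63 (-0.04 to 1.30), and the leukotriene receptor Ltb4r1 at -0.55 (-1.39 to 0.24).

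The 12 genes with the highest ratio among those seen in at least 25% of the Gr1-high wells were, with their log2 ratios, Trim30b (4.66), Stfa2l1 (4.22), Retnlg, Grina (3.18), Pla2g7 (3.11), Cxcr2, Fpr1, Trpm2 (2.73), Slpi (2.72), Csf3r, Ddx60 (2.71) and Ccr1. Trim30b, of the TRIM family, had 56 UMIs in 24 Gr1-high wells and 4 UMIs in 4 Gr1-low wells. Stfa2l1, a stefin-like protease inhibitor, had 124 UMIs in 12 Gr1-high wells, and 83.3% of its 12 Gr1-low UMIs were in 1 well. Slpi, an inhibitor of neutrophil elastase, had 55 against 15 UMIs, and Trpm2, a calcium channel, 59 against 16. Grina had a UMI in 96.9% of the erythroblast wells, so that its share of wells is not read. Pla2g7 and Slpi overlap other annotated genes, the latter a microRNA on its own strand, and the use of strand in the counting is not given in the sources used here.

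**Figure D2:**
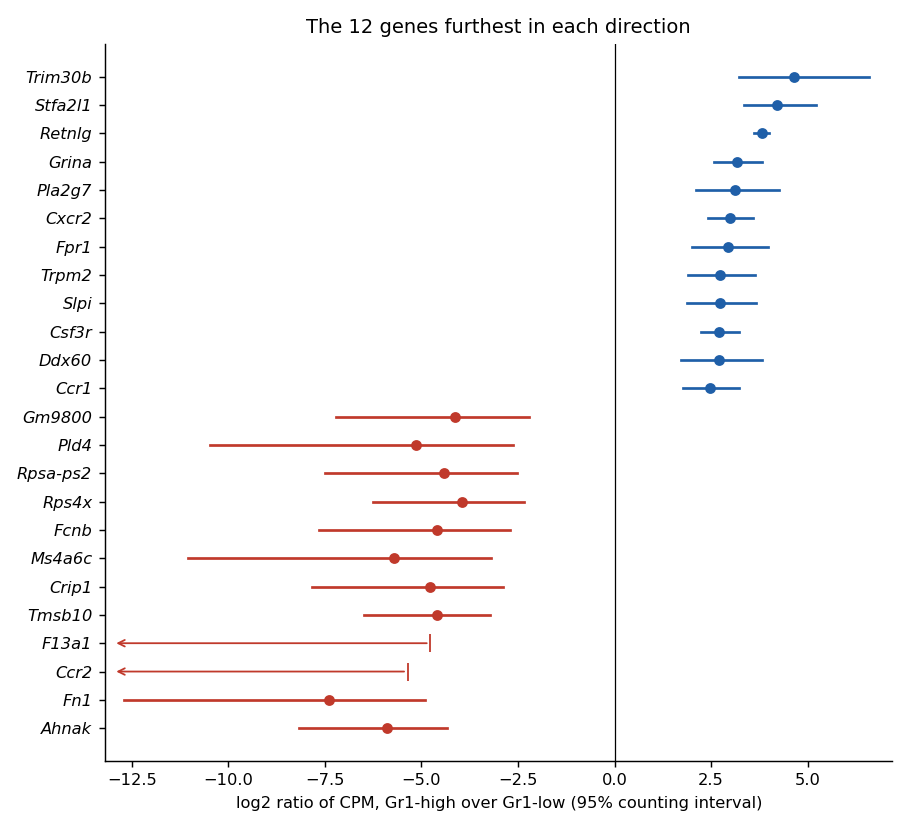
Log2 ratio of CPM of the Gr1-high over the Gr1-low wells for the 12 genes furthest in each direction, with the 95% counting interval as a bar. Genes higher in Gr1-high wells lie between 2.47 (Ccr1) and 4.66 (Trim30b), and arrows mark Ccr2 and F13a1, which had 0 UMIs in the Gr1-high wells and so only an upper bound.

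In the Gr1-low wells the monocyte list stood out. Its 23 analysed genes took between 0.091% and 0.733% (median 0.235%) of the UMIs of a Gr1-high well, and between 0.036% and 3.40% (median 0.227%) of a Gr1-low well. The medians were close, and the Gr1-low wells reached further up. There were 13 Gr1-low wells and 1 Gr1-middle well above the highest Gr1-high well, and those 13 wells had Gr1 fluorescence between 736 and 3007. Summed, the list was at 2896 CPM (2578 to 3243) in Gr1-high, 2522 CPM in Gr1-middle and 12829 CPM (12320 to 13354) in Gr1-low wells, a log2 ratio of -2.15 (-2.33 to -1.97). Of 15 genes with enough UMIs 12 were at least 2-fold higher in Gr1-low wells and none in Gr1-high wells, with a median log2 ratio of -3.45. Of all 751 genes 22.6% were at least 2-fold higher in Gr1-low wells. Some of the 12, such as Ccr2 and F13a1, reached the minimum through Gr1-low UMIs alone. The count and the median are therefore no support beyond the summed ratio. Within the plate rows the log2 ratio of the list lay between -2.95 and -1.38.

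Ccr2, the receptor that brings monocytes from the marrow to the blood, had 0 UMIs in the 31 Gr1-high wells, 2 in the Gr1-middle wells and 274 in 15 of the 31 Gr1-low wells, with up to 7.84 UMIs per 1000. With the summed Gr1-high wells set to 3 UMIs, Ccr2 was 50.7-fold higher in Gr1-low wells, a log2 ratio of -5.67. This is not a lower limit, since the exact 95% interval of the log2 ratio ended at -5.36, a smaller difference. F13a1, the A subunit of coagulation factor XIII, had 0, 1 and 183 UMIs. With the same setting it was 33.9-fold higher in Gr1-low wells (log2 ratio -5.08), with an interval that ended at -4.77. Erythroblast wells had a UMI of Ccr2 in 2.08% and of F13a1 in 3.12% of cases. Fn1, fibronectin, had 1 UMI in Gr1-high and 302 in 12 Gr1-low wells, a log2 ratio of -7.39 (-12.70 to -4.90). Ahnak, a large scaffold protein, had 3 and 321 UMIs (-5.89, -8.18 to -4.33). The transcription factor Irf8, needed for the monocyte lineage, had 1 and 59 UMIs (-5.03, -10.36 to -2.50), and the receptor Csf1r, which takes the growth factor of monocytes, 12 and 56 (-1.37, -2.41 to -0.46). Of the same list Emb (0.16), Lgals3 (-0.37) and Tgfbi (0.72) were under the 2-fold limit.

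The 12 lowest genes seen in at least 25% of the Gr1-low wells were Ahnak, Fn1, Ccr2, F13a1, Tmsb10 (-4.60), Crip1 (-4.78), Ms4a6c (-5.72), Fcnb (-4.60), Rps4x (-3.94), Rpsa-ps2 (-4.42), Pld4 (-5.15) and Gm9800 (-4.13). They were ranked with sums under 3 UMIs set to 3, and the ratios given are without that limit. Tmsb10, an actin-binding thymosin, had 4 UMIs in Gr1-high and 174 in 22 Gr1-low wells, whereas its abundant relative Tmsb4x had 1232 and 1588 UMIs (0.48). Rpsa-ps2 and Gm9800 are processed pseudogenes and share reads with their parent genes, so their counts are uncertain. Ms4a6c overlaps a gene of the opposite strand. Of the monocyte list Ahnak, Fn1, Ccr2, F13a1, Crip1, Ms4a6c and Pld4 are named here too.

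**Figure D3:**
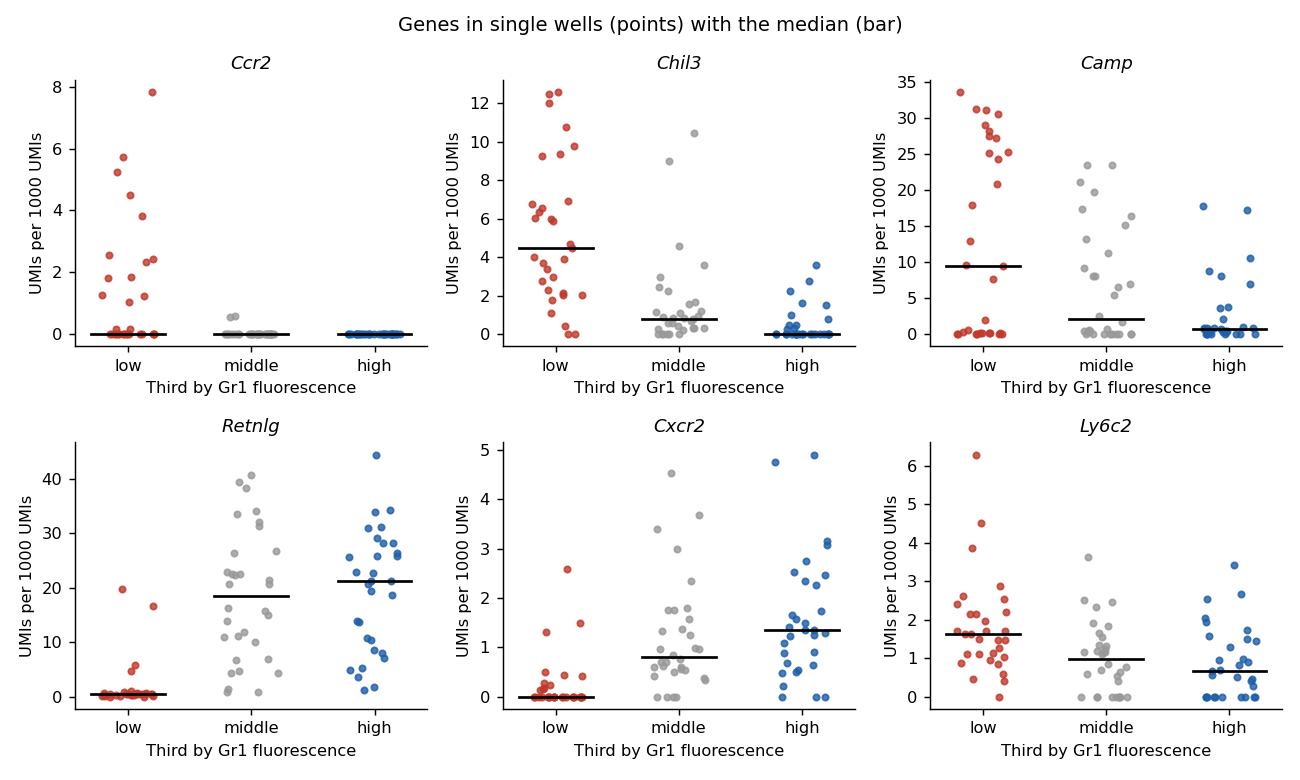
UMIs per 1000 UMIs of each well for 6 genes, with 1 point per well and a bar at the median of each group of Gr1 fluorescence. Ccr2 is at 0 in all 31 Gr1-high wells and above 0 in 15 of 31 Gr1-low wells, while Retnlg has medians of 21.2 in Gr1-high and 0.489 in Gr1-low wells.

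The genes of the specific granules were higher in the summed Gr1-low wells, with a wide spread between wells in every group. The 10 genes of the list took between 0.279% and 8.98% (median 1.03%) of the UMIs of a Gr1-high well, between 0.233% and 11.5% (2.45%) of a Gr1-middle well and between 0.131% and 16.1% (6.02%) of a Gr1-low well. There were 11 Gr1-low wells above the highest Gr1-high well and 2 below the lowest. Summed, the list was at 25649, 46672 and 56567 CPM, with a log2 ratio of Gr1-high over Gr1-low of -1.14 (-1.20 to -1.08). Of 8 genes with enough UMIs 4 were at least 2-fold higher in Gr1-low wells, against 22.6% of all 751 genes, and none in Gr1-high wells. Their median was -0.84. Within the plate rows the ratio lay between -2.26 and -0.69. It fell under 2-fold when the wells were ranked within plate rows (-0.68), when row H was left out (-0.74), and when 47 were set against 47 (-0.64) or 23 against 23 wells (-0.92).

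Chil3, a chitinase-like lectin, had a median of 4.46 UMIs per 1000 in Gr1-low wells (0 to 12.6), of 0.797 in Gr1-middle wells (0 to 10.5) and of 0 in Gr1-high wells (0 to 3.58), with a log2 ratio of -3.10 (-3.50 to -2.73). It was seen in 29 Gr1-low and 11 Gr1-high wells. Camp, the cathelicidin precursor, had medians of 9.45, 2.09 and 0.628 UMIs per 1000 in the same order and a log2 ratio of -1.79 (-1.95 to -1.63). Lactoferrin, Ltf, had medians of 9.90, 2.04 and 0.316 (-1.24, -1.40 to -1.07), and the neutrophilic granule protein Ngp of 16.9, 8.37 and 2.25 (-1.21, -1.32 to -1.10). These 4 genes overlapped widely between the groups, and each group held wells near 0. Lcn2 (-0.35), Cd177 (-0.47), Itgb2l (-0.12) and Hp (0.47) were under the 2-fold limit.

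**Figure D4:**
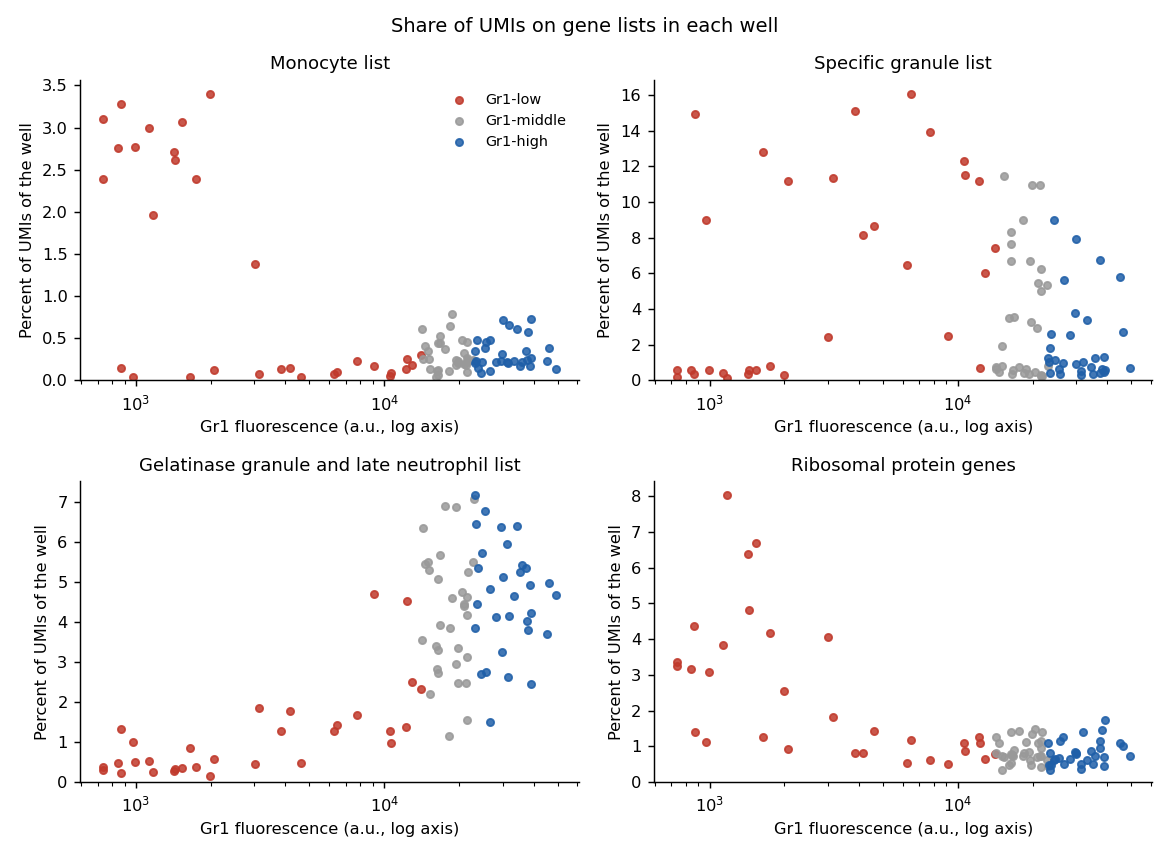
Percent of the UMIs of a well on the genes of 4 lists, against the Gr1 fluorescence of the well in arbitrary units (log axis), with 1 point per well. The monocyte list exceeds 0.733% in 13 Gr1-low wells with Gr1 of at most 3007, while the late neutrophil list is below its lowest Gr1-high value in 24 Gr1-low wells.

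The Gr1-low wells were not uniform. Split at their own median Gr1, which was done after the values had been seen, they gave 15 wells with Gr1 from 736 to 1987 and 16 wells from 2060 to 14077. The monocyte list was at 22506 CPM (21526 to 23520) in the first and at 4184 CPM (3790 to 4608) in the second of these parts. The specific granule list was at 28269 CPM (27169 to 29402) in the first and at 81848 CPM (80071 to 83655) in the second. The first value is a sum of unlike wells, since 12 of the 15 took between 0.131% and 0.829% of their UMIs from this list and the other 3, H21, I18 and J24, took 15.0%, 9.02% and 12.8%. The late neutrophil list was at 4979 CPM and 14227 CPM, both below the 45100 CPM of the Gr1-high wells. Median side scatter was 32640 and 45664 in the 2 parts, median CD44 11016 and 15013, and median Mac-1 1971 and 2158. Over the 31 Gr1-low wells, Spearman's rho with Gr1 fluorescence was 0.70 for the share of the late neutrophil list, 0.49 for the specific granule list and -0.48 for the monocyte list. Over the 63 wells of the other groups it was 0.07, -0.13 and 0.05. The shares of a well come from 1 total, and these values are a description of wells of 1 mouse.

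**Figure D5:**
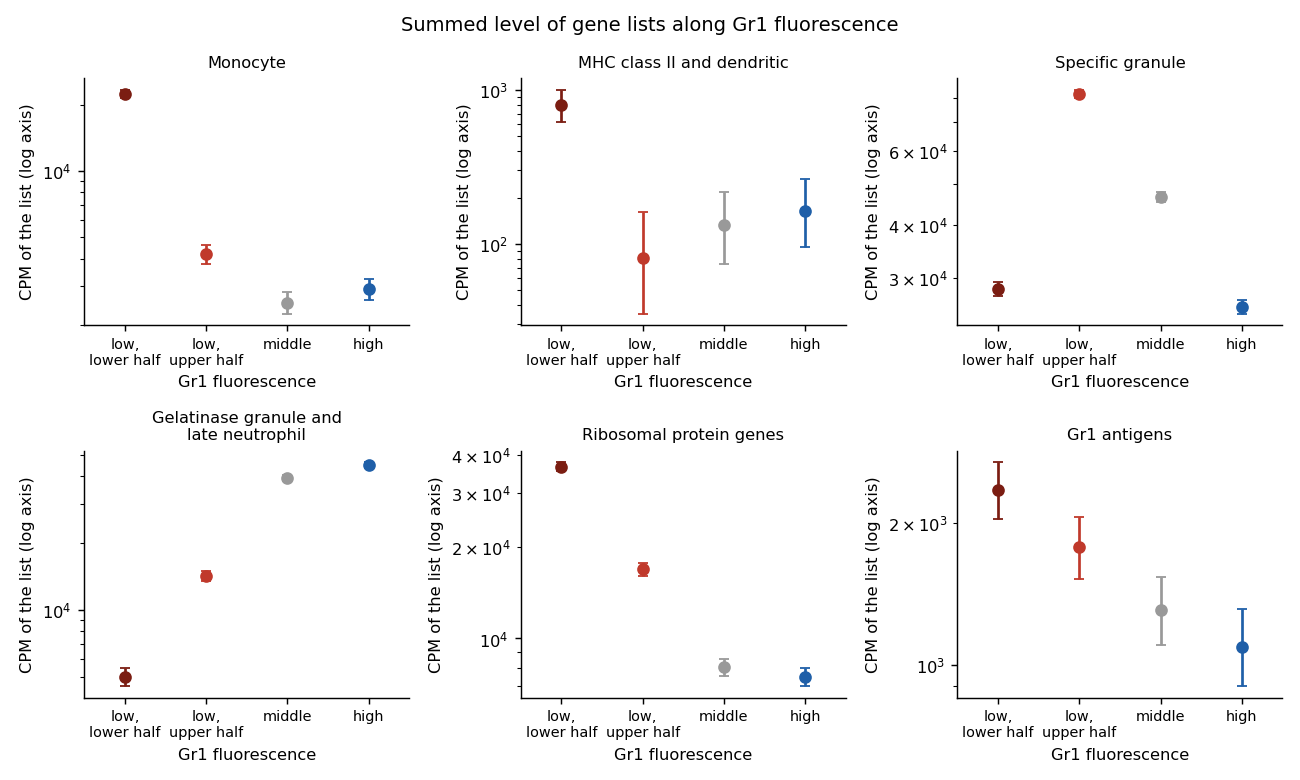
Summed level of 6 gene lists in CPM (log axis) in the Gr1-low wells below and at or above their median Gr1 and in the Gr1-middle and Gr1-high wells, with 95% Poisson intervals that cover counting error only. The specific granule list is at 81848 CPM in the Gr1-low wells with more Gr1, and the monocyte list is at 22506 CPM in those with less.

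The transcripts of the proteins that the Gr1 and Mac-1 antibodies bind did not order the wells as the antibodies did. Ly6c2 had a median of 0.678 UMIs per 1000 in Gr1-high wells (0 to 3.42), 0.988 in Gr1-middle wells (0 to 3.63) and 1.62 in Gr1-low wells (0 to 6.29), so that the groups overlapped. Its log2 ratio of Gr1-high over Gr1-low was -0.97 (-1.31 to -0.65). Ly6g itself had only 1, 5 and 4 UMIs in the 3 groups, and a difference was not detectable at this depth. Ly6c1 had 12, 13 and 25 UMIs. In their last 300 bases, where the reads of this method fall, the annotated transcripts of Ly6c1 and Ly6c2 are 93.5% identical and those of Ly6g and Ly6c2 80.5%, so the counts of the first pair are uncertain. Together the 3 genes were at 1091 CPM (899 to 1311), 1305 CPM and 2049 CPM (1848 to 2265). Of the Mac-1 chains, Itgam was at -0.03 (-0.38 to 0.32) and Itgb2 at 0.68 (0.33 to 1.03), while Mac-1 fluorescence had been higher in the Gr1-low wells.

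The size of the difference in the primary granule list rested on 1 well. Summed, the list was at 164 CPM in Gr1-high and 2124 CPM in Gr1-low wells, a log2 ratio of -3.69 (-4.49 to -3.00). All 4 genes with enough UMIs were at least 2-fold higher in Gr1-low wells, against 22.6% of all 751 genes. The list had only 17 UMIs in Gr1-high wells, so these genes reached the minimum through the Gr1-low wells and their count is no support. Of the 396 Gr1-low UMIs 311 were in well I13, while 6 Gr1-low wells were above the highest Gr1-high well. Without the deepest well of each group the log2 ratio was -1.73 (-2.63 to -0.93). Elane, neutrophil elastase, then had 3 Gr1-low UMIs left and changed direction from -3.19 to 1.99, and Mpo, myeloperoxidase, had all of its 48 Gr1-low UMIs in 1 well. Fcnb, ficolin B, had 58.6% of its 87 Gr1-low UMIs in 1 well, and with sums under 3 UMIs set to 3 its log2 ratio was -4.01 with and -2.82 without the deepest wells. The cell cycle list moved less, from -1.47 (-1.75 to -1.19) to -1.06 without the deepest wells. Its sum rested on few wells, since its median share of a well was close in both groups, 0.105% in Gr1-high and 0.130% in Gr1-low. Only 6 Gr1-low wells were above the highest Gr1-high well, and I13 held 205 of the 661 Gr1-low UMIs. Of the 4 cell cycle genes with enough UMIs 3 were at least 2-fold higher in Gr1-low wells, against 22.6% of all 751 genes. These were Mki67 (-1.68), Top2a (-2.10) and Tubb5 (-1.25). Histone genes, a list formed after the data had been seen, went from -2.04 to -1.13 without the deepest wells, and in plate row H they had the other direction, with 18 UMIs in Gr1-high and 6 in Gr1-low wells (1.68, 0.28 to 3.30).

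Genes of ribosomal proteins, a list formed after the data had been seen, were higher in Gr1-low wells in 38 of 42 cases, against 22.6% of all 751 genes. None of these genes was 2-fold higher in Gr1-high wells, and their median log2 ratio was -1.92. Some of them, such as Rps4x with 3 Gr1-high and 83 Gr1-low UMIs, reached the minimum through Gr1-low wells. The count and the median are therefore no support beyond the summed levels. The genes of the list took between 0.336% and 1.73% of the UMIs of a Gr1-high well and between 0.508% and 8.02% of a Gr1-low well. There were 14 Gr1-low wells above the highest Gr1-high well. The highest Gr1-low well was I17, nearest to the progenitor/stem cells, and the ratio of this list without it was not computed. The list was at 36601 CPM in the Gr1-low wells with less Gr1, 16857 CPM in those with more, 8035 CPM in Gr1-middle and 7481 CPM in Gr1-high wells. Pseudogenes, of which 36 of 51 were higher in Gr1-low and 1 in Gr1-high wells, share reads with genes of this kind. Of 8 cathepsin, lysozyme and lysosome genes with enough UMIs, 4 were at least 2-fold higher in Gr1-low wells, namely Ctsb (-1.89), Ctsh (-1.34), Lamp1 (-2.28) and Psap (-1.65), and the protease Ctsd (1.68) in Gr1-high wells. The lysozyme Lyz2 had 944 and 3089 UMIs and was under the 2-fold limit (-0.86).

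The abundant calcium-binding alarmins S100a8 and S100a9 took 5.19% and 6.34% of the UMIs of the Gr1-high and 3.60% and 4.04% of the Gr1-low wells, with log2 ratios of 0.53 and 0.65. The transcript Gm42418, which overlaps a ribosomal RNA locus, took the largest share in all 3 groups (17.6%, 18.7% and 14.3%). Of the S100 family S100a6 (1.80) and S100a11 (1.45) were at least 2-fold higher in Gr1-high wells, and S100a10 (-4.77, -10.10 to -2.22) was higher in Gr1-low wells. Of 4 myeloid transcription factors with enough UMIs, Zeb2 (-2.36) was at least 2-fold higher in Gr1-low wells, and Spi1, which encodes PU.1, was at 0.48. Of 13 genes of the actin cytoskeleton, 1 lay past the limit in each direction, the bundling protein Lcp1 (1.17) and Tmsb10. Both immediate early genes with enough UMIs, Btg2 (1.19) and Zfp36 (1.68), were at least 2-fold higher in Gr1-high wells. Within plate rows the summed immediate early list lay between 0.23 and 1.28, with an interval of -0.83 to 1.21 in row J. Of all 751 genes 14.8% were 2-fold higher in Gr1-high and 22.6% in Gr1-low wells. The counts for transcription factors and actin genes were near or under these shares. The lists for Fc receptors, MHC class I, interferon response, glycolysis and antioxidant proteins held only 2, 2, 2, 3 and 4 genes with enough UMIs. None of these was past the 2-fold limit, against 37.4% of all 751 genes, and so few genes do not show that a list was unchanged. Summed, MHC class I was lower in Gr1-high wells (-0.45, -0.67 to -0.22), while the counting intervals of the other lists included no difference.

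Markers of other cells were looked at in the summed groups. Of the 10 eosinophil genes 6 were analysed and had 0 UMIs in Gr1-high, 12 in Gr1-middle and 11 in Gr1-low wells. Natural killer genes had 0, 0 and 2 UMIs, and basophil and mast cell genes 2, 2 and 10. The lists for B lymphocytes (251 and 220 CPM), T lymphocytes (87 and 48 CPM) and macrophages (251 and 215 CPM) were low in both Gr1-high and Gr1-low wells, and progenitor/stem genes were at 222 and 70 CPM, from 23 and 13 UMIs (log2 ratio 1.67, 0.63 to 2.77). Genes of MHC class II and dendritic cells had 17 UMIs in Gr1-high and 78 in Gr1-low wells, of which 70 were in the 15 wells with the least Gr1. That sum rested on few wells, since 50 of the 78 UMIs were in plate row I. Only 2 Gr1-low wells were above the highest Gr1-high well (0.087% of its UMIs), and the highest Gr1-low well reached 0.970%. That well was I17 of row I, which was nearest to the progenitor/stem cells, and the ratio of this list without it was not computed. The erythroblast list, mostly haemoglobin, was at 18708 CPM in Gr1-high and 12609 CPM in Gr1-low wells against 246693 CPM in the erythroblasts, and its part in the results was not tested. The median depth per well was 3102 UMIs in Gr1-high, 3283 in Gr1-middle and 5483 in Gr1-low wells, so it moved with every comparison against Gr1-low wells. The ratios of some of the lists in wells thinned to 1000 UMIs are among the limits at the end.

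The 250 bases before the annotated start were searched in the named genes for letters that the neutrophil factors PU.1 and C/EBP are known to bind. These were TTNNGCAA for C/EBP and GAGGAAGT for PU.1, on both strands. The C/EBP letters were in 2 of 11 promoters of the genes higher in Gr1-high wells (18.2%), in 1 of 9 of those higher in Gr1-low wells (11.1%) and in 9.55% of all 27025 promoters. The PU.1 letters were in none of these 20 promoters and in 2.44% of all. Those of Retnlg and Fcnb, which differed in opposite directions, are shown with the C/EBP letters in capitals, 5' to 3' on the strand of the gene, from RefSeq on GRCm38.p6. The first lies on the plus strand at chr16:48872358-48872607 and the second on the minus strand at chr2:28084879-28085128. A match is a run of letters and not a measured binding site.
Retnlg: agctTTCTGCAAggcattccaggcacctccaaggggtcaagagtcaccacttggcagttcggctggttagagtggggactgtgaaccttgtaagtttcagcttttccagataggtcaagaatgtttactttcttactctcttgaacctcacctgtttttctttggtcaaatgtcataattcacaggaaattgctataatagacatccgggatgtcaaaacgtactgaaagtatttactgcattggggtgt
Fcnb: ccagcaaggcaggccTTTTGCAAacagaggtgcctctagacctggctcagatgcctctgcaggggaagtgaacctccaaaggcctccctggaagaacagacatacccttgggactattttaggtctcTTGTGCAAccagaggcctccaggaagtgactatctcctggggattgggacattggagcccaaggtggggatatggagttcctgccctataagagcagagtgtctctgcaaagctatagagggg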

How the data were processed

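The values were deposited as raw UMI counts, which the authors made from CEL-seq2 reads with *scPipe*. Their build, annotation and strand setting were not given in the sources used here. Well names matched columns to samples, and 9 columns without a match were not used. Gene symbols and coordinates came from GENCODE M21 on GRCm38, possibly another build than that of the counts. No symbol was found for 74 of 19829 mouse gene IDs. Only mouse genes entered the totals, and the 74 ERCC rows were kept apart.

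Wells with at least 500 UMIs were ranked by Gr1 fluorescence. Counts were summed per group, and CPM and log2 ratios came from the sums. Genes needed 50 UMIs in both groups together. Sums under 3 UMIs were set to 3 for counts of genes and for ranking. A gene was counted as higher from 2-fold. The median well of the compared groups held 3102 or 5483 UMIs, so intervals are wide for low genes. Named genes are the 12 highest and 12 lowest detected in 25% or more of the higher group's wells, the members of the lists, and the 3 most abundant genes. The groups, lists and motifs were chosen with earlier results of these data known. The sort was set to 1 cell per well, which was not checked, and no doublet caller was run. The interval step was tested on simulated data. List genes without a row are not analysed here. Python 3.11.15, numpy 2.4.6, pandas 2.3.3, scipy 1.17.1, biopython 1.88, matplotlib 3.10.9, and R 4.3.3 with edgeR 4.0.16, used for TMM factors only, were run. Alternatives changed the wells, the grouping, the weighting, the depth, the scaling and the filters.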

Additional observations from a re-analysis of the deposited data

How the results depend on the processing

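Over 118 genes and 16 alternatives, 1882 ratios were computed. A change of direction was counted only for genes past 2-fold and occurred in 5 ratios. Of the others, 1667 stayed within the counting interval of the reported value and 210 left it. Changes of sign in ratios under 2-fold are among these and were not counted. The 24 genes furthest in either direction stayed past 2-fold in all 384 cases (smallest size 1.22), but of all 62 genes past 2-fold 16 were under it in 50 cases. Elane changed direction without plate row I (-3.89 to 1.71 over the rows left out), without the deepest wells (1.99) and without wells of high scatter area over height (2.09), and Prtn3 in the last pair (0.35 and 0.26); well I13 was left out in each. These values rest on few UMIs, and for Prtn3 the Gr1-high sum was under 3 and set to 3. Mpo and Prtn3 gave no ratio in 6 cases, with at most 3 UMIs in both groups.

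The counts of genes at least 2-fold higher in Gr1-high and in Gr1-low wells were 281 and 575 with a minimum of 20 UMIs per gene, 46 and 69 with 100, 735 and 1027 with none, and 19 and 9 in wells thinned to 1000 UMIs, where 95 genes passed the minimum of 50. Leaving out plate rows, they were 71 to 80 and 98 to 157, with 71 and 108 without row I and 98 in Gr1-low without row J. Leaving out the 2 wells nearest to progenitor/stem cells, an alternative chosen after seeing the data, gave 105 and 143, with log2 ratios of -2.06 for the monocyte list, 2.13 for the late neutrophil list, -0.76 for the Gr1 antigens, -3.75 for the primary granule list and -1.43 for the cell cycle list.

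The log2 ratio of the specific granule list was -1.48 with wells weighted equally, -0.64 between the 47 upper and 47 lower wells, -0.92 between the 23 highest and 23 lowest, -0.68 ranked within plate rows, -1.39 without the deepest wells, -1.24 without wells of high scatter ratio, -1.39 thinned, -1.05 with TMM, -1.01 without the most abundant genes in the total, -1.22 without the 2 wells nearest to progenitor/stem cells and -1.19 to -0.74 without a plate row. The monocyte list was -1.89 with equal weights, -1.95 between the 47, -2.34 between the 23, -1.81 thinned and -2.53 to -1.60 without a plate row. Chosen after seeing the data, the late neutrophil list was 2.00 with equal weights, 1.41 between the 47, 2.71 between the 23, 1.95 ranked within rows, 2.05 without wells of high scatter ratio, 2.04 thinned, 2.28 with TMM, 2.33 without the most abundant genes and 1.81 to 2.41 without a plate row. The primary granule list was -2.45 with equal weights, -1.73 without the deepest wells, -1.68 without wells of high scatter ratio, -2.46 thinned and -4.37 to -1.83 without a plate row. The cell cycle list was -1.02 with equal weights, -1.06 without the deepest wells, -1.11 without wells of high scatter ratio and -0.93 thinned. Where no well set shows the cause, the cause was not tested.

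The scaling without the most abundant genes moved the median log2 ratio of all genes from -0.01 to 0.13. No paired analysis was possible because each well holds a different cell of 1 mouse, and the results come from no test. Every plate row holds wells of both groups, and ratios within rows are given for the late neutrophil, monocyte and specific granule lists and, in row H, the histone genes. Some of the 24 genes furthest in either direction lost their direction within a row. Fpr1 was at -0.04 in row G, from 3 against 5 UMIs. With sums under 3 UMIs set to 3, Fcnb was at 0.29 in row G and 0.44 in row J, and Gm9800 at 0.09 in row H. Single rows were not among the 16 alternatives. All cells were of 1 mouse and 1 plate, so spread between animals is not known, and Gr1 and depth cannot be told apart as sources of a difference in genes of few UMIs.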
